A study of Mus musculus with 2 samples.

Results

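The genes described here are 33 genes of the p53 pathway, namely p53 itself, its regulators and a selection of its direct targets, with the CDK inhibitor Cdkn1a left out of the list. They were compared between primary and self-renewing macrophages on Agilent mouse expression arrays. A gene was included where a transcript accession on the array named it, and all 33 genes had at least 1 probe, among 22910 genes named in this way. The list was drawn up with the values of this same comparison in view, so its differences are given as a description and no test was made of them. Both cultures came from bone marrow of C57BL/6 mice, labelled male, and were grown in RPMI1640 with 10% fetal calf serum and 100 ng/ml recombinant human M-CSF, the cytokine that drives macrophage development. The primary macrophages were collected at day 5. The self-renewing macrophages were taken after passage 4, when most cells of such a culture stop dividing and colonies of growing cells take over, and by the study's methods they were as a rule a mixed population and had not been cloned. There was 1 array for each cell type, so no value has a replicate check. As each array measured a bulk culture, fewer cells of a type and less RNA per cell cannot be told apart.

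p53, encoded by Trp53 in the mouse, is a transcription factor that is held at a low level by the ubiquitin ligase Mdm2 and its partner Mdm4. DNA damage and other stress release it from Mdm2, mainly by changes to the protein, and it then switches on genes that stop the cell cycle, repair DNA, adjust metabolism or kill the cell. Mdm2 is itself a target, which closes a feedback loop. In macrophages, as in other cells, Cdkn1a is its best known target for cell cycle arrest.

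Signal is given throughout as log2 of the background-corrected intensity over the 75th percentile of all gene probes on that array, which is called relative signal here. Differences are self-renewing minus primary macrophages. The arrays resembled each other in brightness, with the 75th percentile at an intensity of 434 and 446. All 10 macrophage markers checked, among them Csf1r, Adgre1 and Spi1, were well above background on both arrays, a flag that the scanner software sets for each spot. Of 9 neutrophil markers with a probe, primary macrophages had 8 and self-renewing macrophages 5 well above background, and their summed signal was 105 and 6.60 times the 75th percentile. S100a8, S100a9, Ltf and Ngp were the 4 not above background in the latter. The summed signal of 4 B cell markers was 1.75 and 0.0916 times the 75th percentile, that of 3 T cell markers 2.42 and 2.36, and 5 of 6 fibroblast markers were above background on neither array. All 16 proliferation genes checked were lower in self-renewing than in primary macrophages, by a median difference of -0.80 log2. Although both labels give male mice, the primary array had 0 and the other array 4 of 4 Y-linked genes well above background, while Xist, the RNA of the inactive X chromosome, was above background on the primary array only. The part of these differences in the results below was not tested.

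Most p53 pathway genes had a higher signal in the self-renewing macrophages. Of the 33 genes, 32 were measured, that is, well above background on one or both arrays. Counted by the brightest probe of each gene, 26 were higher and 6 lower in the self-renewing macrophages. These counts include Btg2 as higher and Apaf1 and Tnfrsf10b as lower, although the probes of these 3 genes disagreed in direction. Their median difference was 0.68 log2, beside -0.02 log2 for all 15515 named genes measured, of which 47.9% were higher. At least 2-fold higher were 12 of the 32 genes, or 37.5%, beside 4.76% of all named genes. As the list was chosen on this contrast, nothing is read from that gap. At least 2-fold lower were 2 genes, or 6.25%, beside 8.38% of all named genes. A further 5 genes, Btg2 among them, were between 1.5-fold and 2-fold higher by the same count, and 13 differed by less than 1.5-fold in either direction. The authors' scaled values raise all genes in the self-renewing macrophages by a median of 0.19 log2. With them, 49.2% of all genes past 2-fold were higher in place of 36.2%. At least 2-fold higher were then 14 of the p53 pathway genes, beside 6.67% of all named genes. As a yardstick within this pair of arrays, probes for the same gene differed by an SD of 0.32 log2 over 5077 genes. Such probes share the same RNA, so this SD leaves out the spread between cultures. Of 16 p53 pathway genes with several probes above background, 13 had probes that all went the same way.

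**Figure D1:**
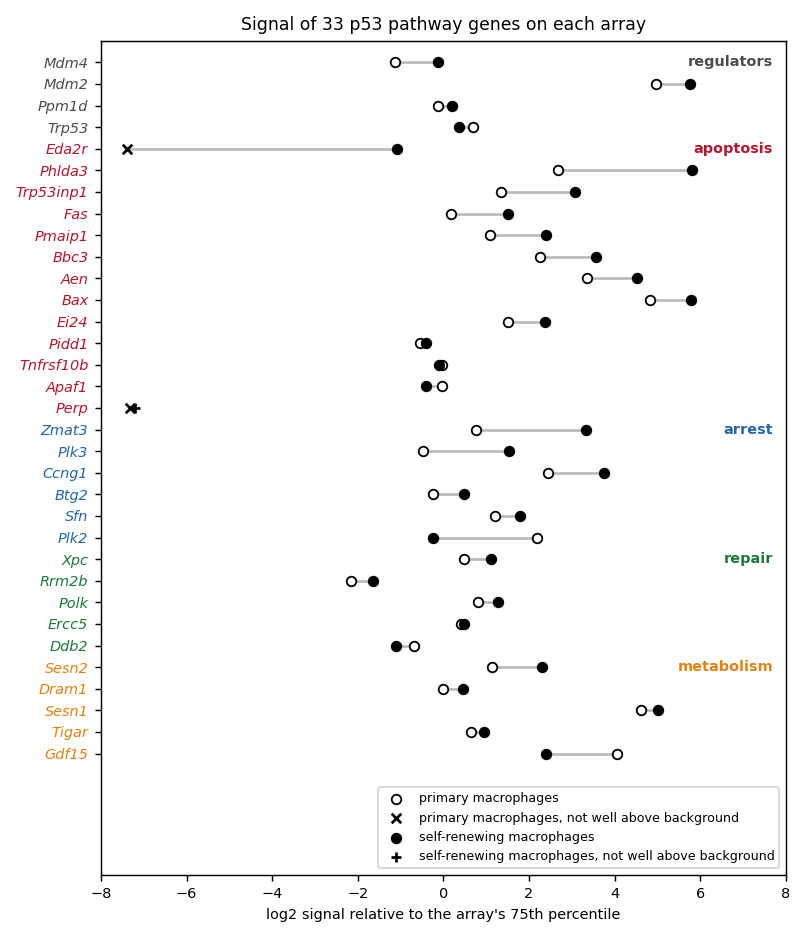
Relative signal (log2) of the 33 p53 pathway genes, for primary (open) and self-renewing macrophages (filled), 1 array each, grouped by role. Crosses mark signals not well above background. Most filled points lie to the right of the open ones, with Gdf15 and Plk2 as the clearest exceptions, and levels of different genes are not comparable because each rests on its own probe.

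Among the regulators, the transcript of p53 itself differed little, while both genes that restrain it had a higher signal in the self-renewing macrophages. Trp53 had a relative signal of 0.68 in primary and 0.37 in self-renewing macrophages, 1.24-fold lower in the latter, as measured by 1 probe. The arrays give no measure of p53 protein or of its binding to DNA. Mdm2, the ligase that marks p53 for degradation, stood at 4.98 in primary and 5.76 in self-renewing macrophages, 1.72-fold higher, and its dimmer probe gave 1.03 log2. For Mdm4, which blocks p53 at promoters, the values were -1.13 and -0.12. Its 4 probes were all higher in the self-renewing macrophages, from 0.65 to 1.17 log2, and the brightest placed the gene just past the 2-fold threshold, at 2.02-fold. Ppm1d, a phosphatase that turns the damage response off and is a p53 target too, was 1.25-fold higher, with probes at 0.09 and 0.33 log2. All 3 regulators that oppose p53 were thus higher in the self-renewing macrophages and Trp53 was lower, with the differences of Ppm1d and Trp53 within about 1 SD between probes.

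The apoptosis group, the largest of the role groups, held the most genes past 2-fold by number. Of its 13 genes, 12 were measured. In the self-renewing macrophages 10 were higher, or 83.3% beside 47.9% of all named genes, and 2 lower. Past the 2-fold threshold lay 7 genes, or 58.3%, all on the higher side, beside 4.76% of all named genes. The median difference was 1.24 log2. As the list was chosen on this contrast, nothing is read from these gaps. Phlda3, which competes with the kinase Akt for membrane lipids and so damps survival signals, had the largest difference of the genes measured on both arrays. Its intensity was 2786 in primary and 25098 in self-renewing macrophages, or 2.68 and 5.81 as relative signal, an 8.76-fold difference measured by 1 probe. This placed it 50th from the top among the 14003 named genes measured on both arrays. Eda2r, a receptor of the TNF receptor family that binds an isoform of ectodysplasin and has no death domain, could be measured in the self-renewing macrophages alone. Its brightest probe had an intensity of 2.58 in primary and 212 in self-renewing macrophages, which makes it at least 17.4-fold higher. A second Eda2r probe gave a bound of 2.12 log2, and the third was above background on neither array. Eda2r lies on the X chromosome, and the sex-linked genes given above differed between the cultures. Its difference moved with the processing more than that of any other gene of the list, from 2.09 to 6.31 log2.

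The mitochondrial arm of apoptosis was represented by Bax, Bbc3 and Pmaip1, all members of the BCL2 family. Bbc3, which encodes the BH3-only protein PUMA, had a relative signal of 2.26 in primary and 3.56 in self-renewing macrophages, 2.45-fold higher in the latter. Pmaip1, which encodes NOXA, stood at 1.08 and 2.39, 2.48-fold higher. Bax, which forms pores in the outer mitochondrial membrane, lay just under the threshold, at 4.82 and 5.78 or 1.95-fold higher, and its other probe gave nearly the same value, 0.97 log2. Both BH3-only genes and the gene of the pore-forming protein were thus higher by similar factors. Apaf1, the scaffold of the apoptosome that forms once cytochrome c leaves the mitochondria, had relative signals of -0.03 and -0.40 by its brighter probe, 1.30-fold lower, and the dimmer one gave 0.01 log2. Pidd1, the scaffold that activates caspase-2, was near 0, with probes at 0.13 and 0.28 log2.

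Fas, a death receptor, had a relative signal of 0.18 in primary and 1.52 in self-renewing macrophages, 2.53-fold higher, and its dimmer probe gave 0.97 log2. Tnfrsf10b, the mouse receptor for TRAIL, did not share this difference. Its brighter probe had relative signals of -0.04 and -0.10, a difference of -0.06 log2, the dimmer one, near the background on both arrays, gave 0.31 log2, and its direction turned under 2 of the 8 other ways of processing. Trp53inp1, a nuclear protein that promotes p53-dependent death and autophagy, was 3.34-fold higher by its brighter probe, at 1.34 and 3.08, and its other probe gave 1.35 log2. Aen, a nuclease that takes part in the breakdown of DNA, was 2.26-fold higher, at 3.36 and 4.53, and its 3 probes lay close together, from 1.11 to 1.22 log2. Ei24, which encodes a protein of the endoplasmic reticulum, was 1.81-fold higher, with probes at 0.86 and 1.01 log2. Perp, a tetraspan membrane protein of desmosomes known from epithelial cells, was above background on neither array.

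Of 6 arrest genes, 5 were higher by their brightest probe in self-renewing macrophages, or 83.3% beside 47.9% of all named genes. The other gene was lower, and the median difference was 1.01 log2. Btg2 is among the 5, though only by the choice of probe. At least 2-fold higher were 3 genes, or 50%, beside 4.76% of all named genes. At least 2-fold lower was 1, or 16.7%, beside 8.38%. These genes were chosen on this contrast with the rest of the list, so nothing is read from the gaps. Zmat3, which encodes an RNA-binding zinc finger protein, had an intensity of 733 in primary and 4465 in self-renewing macrophages, 5.92-fold higher, and ranked 95th from the top among the genes measured on both arrays. Ccng1, the cyclin G1 that recruits a phosphatase to Mdm2, stood at 2.44 and 3.74, 2.47-fold higher. The polo-like kinases of the list went in opposite directions. Plk3 had a relative signal of -0.48 in primary and 1.54 in self-renewing macrophages, 4.07-fold higher. Plk2 had 2.18 in primary and -0.24 in self-renewing macrophages, 5.38-fold lower, which placed it 185th from the bottom. Each of these 4 genes was measured by 1 probe. Btg2, an antiproliferative protein that acts on mRNA deadenylation, had relative signals of -0.24 and 0.49 by the probe used here, 1.65-fold higher, but its other probe, of similar brightness, gave -0.51 log2, so its direction depends on the probe. Sfn, the 14-3-3 sigma protein that holds back mitotic entry in epithelial cells, was 1.48-fold higher.

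Bases upstream of the annotated start are shown for Ccng1 and Bax, in whose promoters a p53 motif was found, and for Phlda3. Phlda3 is shown because it had the largest difference of the p53 pathway genes measured on both arrays. The motif searched was the p53 consensus decamer, on both strands, in the 250 bases before each start in RefSeq's annotation of GRCm38.p6. A paired site was taken as a pair of decamers at most 13 bases apart, with at most 1 mismatch in all. Of the 33 genes, 25 had such a sequence, and 9 of these, or 36.0%, held at least 1 perfect decamer, beside 8.20% of 27025 genes. Paired sites were found in 3 of the 25, Ccng1, Bax and, at 1 of its annotated starts, Polk, or 12.0%, beside 1.02% of all genes. The Polk sequence is not shown. As the list was made up of p53, its regulators and its direct targets, nothing is read from these gaps. Known p53 sites often lie in introns or farther upstream, outside this window, and a match is not evidence of binding in these cells. In the sequences below, 5′ to 3′ on the strand of the gene, capitals mark the decamers of the paired site. The Ccng1 sequence is chr11:40755287-40755536 and the Bax sequence chr7:45466899-45467148, both on the minus strand, and the Phlda3 sequence is chr1:135765835-135766084 on the plus strand.
Ccng1: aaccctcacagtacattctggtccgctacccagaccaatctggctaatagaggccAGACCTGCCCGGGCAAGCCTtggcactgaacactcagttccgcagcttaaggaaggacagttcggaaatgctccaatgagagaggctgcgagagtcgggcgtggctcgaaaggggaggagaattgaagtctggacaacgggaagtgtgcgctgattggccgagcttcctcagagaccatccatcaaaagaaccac
Bax: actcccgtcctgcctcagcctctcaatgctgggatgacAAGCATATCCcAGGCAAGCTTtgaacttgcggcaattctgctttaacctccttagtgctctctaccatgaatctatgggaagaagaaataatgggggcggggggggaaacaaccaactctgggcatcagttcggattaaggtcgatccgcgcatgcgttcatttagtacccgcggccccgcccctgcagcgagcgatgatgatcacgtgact
Phlda3: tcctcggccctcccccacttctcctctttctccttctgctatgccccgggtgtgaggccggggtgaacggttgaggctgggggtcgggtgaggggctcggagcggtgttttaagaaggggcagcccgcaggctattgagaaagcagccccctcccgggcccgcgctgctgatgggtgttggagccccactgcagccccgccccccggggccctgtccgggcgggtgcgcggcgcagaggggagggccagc
In Ccng1 the decamers were adjacent, 195 to 176 bases before the start. In Bax they were 1 base apart, 212 to 192 bases before the start. No decamer was found in the Phlda3 window. Of the genes at least 2-fold higher besides Ccng1 and Phlda3, Aen held a perfect decamer at 1 of its annotated starts. None was found in the windows of Bbc3, Eda2r, Fas, Mdm4, Plk3 and Sesn2. Zmat3, Trp53inp1 and Pmaip1 were not searched, as no sequence was at hand for them.

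**Figure D2:**
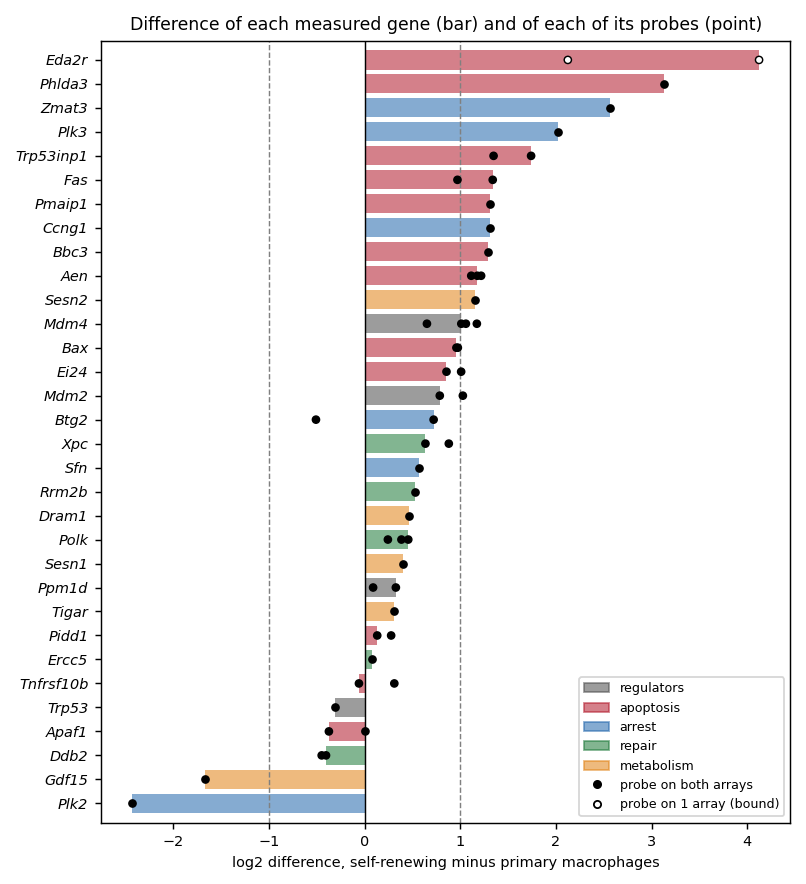
Difference of each of the 32 measured genes (bar, coloured by role) and of each of its probes (points), in log2, self-renewing minus primary macrophages. Dashed lines mark 2-fold. Open points are lower bounds from probes above background on 1 array only. The bars reach from -2.43 for Plk2 to a bound of 4.12 for Eda2r, and only Btg2, Tnfrsf10b and Apaf1 have probes on both sides of 0.

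The DNA repair genes had a smaller median difference than the apoptosis and arrest genes. Of 5 genes, 4 were higher, or 80% beside 47.9% of all named genes, and 1 was lower. By 2-fold, 0 differed, beside 4.76% of all named genes higher and 8.38% lower, and the median was 0.46 log2. As the list was chosen on this contrast, nothing is read from these gaps. Xpc, which recognises damage in nucleotide excision repair, had relative signals of 0.47 in primary and 1.11 in self-renewing macrophages, 1.55-fold higher, and its dimmer probe gave 0.88 log2. Ddb2, which acts before Xpc on ultraviolet damage, went the other way, at 1.32-fold lower, with both probes at -0.45 and -0.40 log2. The neighbouring steps of damage recognition thus differed in direction. Ercc5, the nuclease that makes the incision on the other side of the damage, was 1.06-fold higher. Polk, a polymerase that copies past damaged bases, was 1.37-fold higher, and its 3 probes were all above 0, from 0.24 to 0.46 log2. Rrm2b, a subunit of ribonucleotide reductase that p53 induces in cells that do not replicate, was 1.44-fold higher by 1 probe.

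Among the metabolic targets, the median difference was 0.40 log2 and the members did not move together. Sesn2, a leucine sensor that restrains mTORC1, had a relative signal of 1.14 in primary and 2.30 in self-renewing macrophages, 2.23-fold higher, whereas its relative Sesn1 stood at 4.62 and 5.03, 1.32-fold higher. Tigar, which lowers glycolytic flux, was 1.24-fold higher, and Dram1, a lysosomal protein of autophagy, was 1.37-fold higher. Gdf15, a secreted factor that signals through a receptor in the brainstem and responds to p53 and to the integrated stress response, was the exception. Its intensity was 7254 in primary and 2343 in self-renewing macrophages, 3.19-fold lower in the latter by 1 probe. Gdf15 and Plk2 were the only genes of the list at least 2-fold lower.

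**Figure D3:**
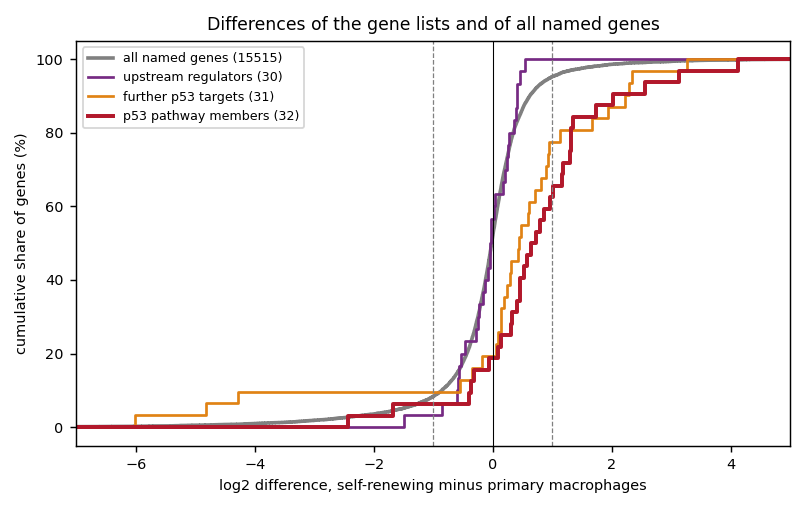
Cumulative share of genes, in percent, by log2 difference between self-renewing and primary macrophages, for the 32 measured p53 pathway genes, 31 further p53 targets, 30 upstream regulators and all 15515 named genes. Dashed lines mark 2-fold and the axis leaves out the most extreme genes. The curves of the p53 pathway genes and of the further targets lie to the right of that of all genes over most of their range, while that of the upstream regulators lies close to it around 0 and is narrower at both ends.

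A list of 33 further p53 targets was looked at beside the p53 pathway genes. This list too was chosen with earlier results of these data known, so nothing is read from its gaps to all named genes. Of these targets, 31 were measured. In the self-renewing macrophages 25 were higher, or 80.6% beside 47.9% of all named genes, and 6 lower, and the median was 0.44 log2. At least 2-fold higher were 7 genes, or 22.6%, and 3 were at least 2-fold lower, or 9.68%, beside the same 4.76% and 8.38% of all named genes. With the authors' scaled values, 11 were at least 2-fold higher, beside 6.67% of all named genes. Among the higher genes measured on both arrays, Ephx1, a microsomal epoxide hydrolase, had the largest difference at 9.59-fold, with relative signals of 3.41 and 6.67. Ak1, an adenylate kinase, was 5.04-fold higher and Crip2, a LIM domain protein, 4.66-fold. Psrc1, which binds microtubules, was 3.82-fold higher, Dcxr, a xylulose reductase, 3.16-fold, and Kitl, the ligand of the receptor Kit, 2.18-fold. Ddit4l, an inhibitor of mTORC1, could be measured in self-renewing macrophages alone and was at least 4.90-fold higher, a bound that gives it no place in this order. Among the classical damage-response genes of the list, Gadd45a was 1.86-fold higher.

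The 3 genes at least 2-fold lower were Cdkn1a, Pltp and Thbs1. Cdkn1a, the target left out of the list of 33, had a relative signal of 4.10 in primary and -1.92 in self-renewing macrophages, a difference of -6.02 log2, and its other probe gave -4.30 log2. An upstream window of Cdkn1a held a perfect pair of p53 decamers 12 bases apart, and any windows of it without a pair were not listed. Pltp, which transfers phospholipids between lipoproteins and is also known as a target of the LXR receptors, differed by -4.82 log2. Thbs1, the matrix protein thrombospondin-1, was above background in primary macrophages only, with a bound of -4.29 log2. Of the targets among the 33 genes, Plk2 and Gdf15 were, like Cdkn1a, at least 2-fold lower. Ddb2 and, by their brighter probes only, Apaf1 and Tnfrsf10b were lower by less.

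**Figure D4:**
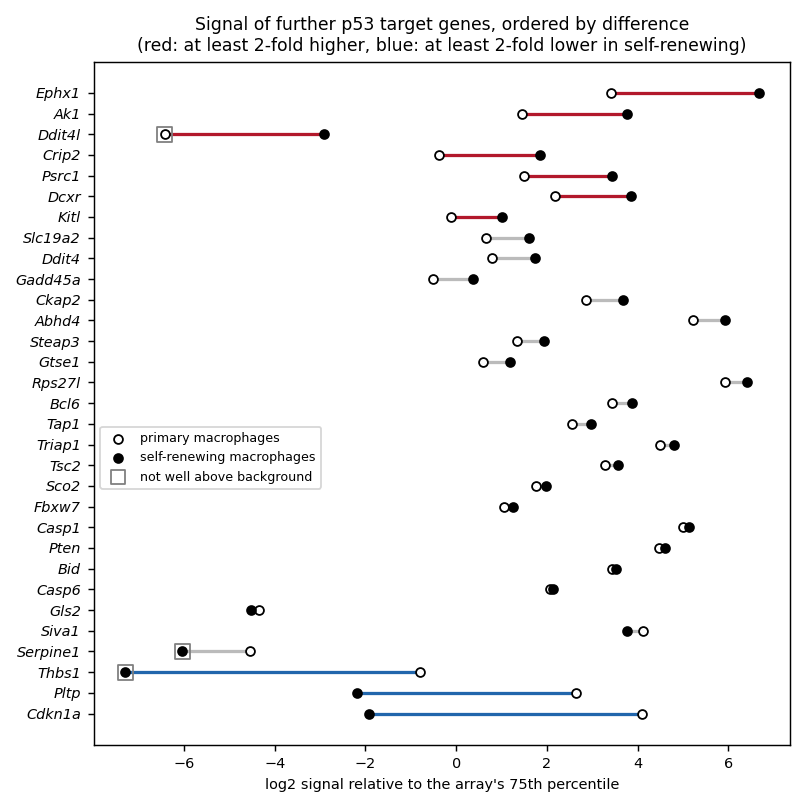
Relative signal (log2) of 31 further p53 targets, for primary (open) and self-renewing macrophages (filled), 1 array each, ordered by difference. Squares mark signals not well above background, and red and blue lines mark genes at least 2-fold higher or lower. Ephx1 lies at the top, at 9.59-fold higher, and Cdkn1a at the bottom, at -6.02 log2.

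Of the genes that act on p53 from upstream, few differed by much. All 30 genes of this list were measured, with 13 higher, or 43.3% beside 47.9% of all named genes, and 17 lower. The median was -0.03 log2, or 0.15 log2 with the authors' scaled values. At least 2-fold higher were 0 genes, beside 4.76% of all named genes, and 1 was at least 2-fold lower, or 3.33% beside 8.38%. Of the damage kinases, Atm differed by -0.47 log2 and Chek2 by 0.18 log2. By the brightest probe, Chek1, the checkpoint kinase of replication stress, was the only gene of this list past 2-fold. Its relative signals were -1.06 and -2.56, a difference of -1.50 log2, and its other probe gave -1.11 log2. Trp53bp1 and Cop1 each had a dimmer probe past 2-fold higher, at 1.02 and 1.01 log2, while their brightest gave 0.53 and -0.14 log2. Probes disagreed in direction for Cop1, Hipk2 and Trim24. The ribosomal proteins Rpl5 and Rpl11, which bind Mdm2 when ribosome assembly fails, differed by -0.28 and -0.25 log2. Cdkn2a, which was looked at after its values were seen, encodes both INK4A and ARF, an inhibitor of Mdm2. Its signal in self-renewing macrophages was 15.3-fold higher, with probes at 3.59 and 3.94 log2, and which of its products the probes measure was not determined here.

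**Figure D5:**
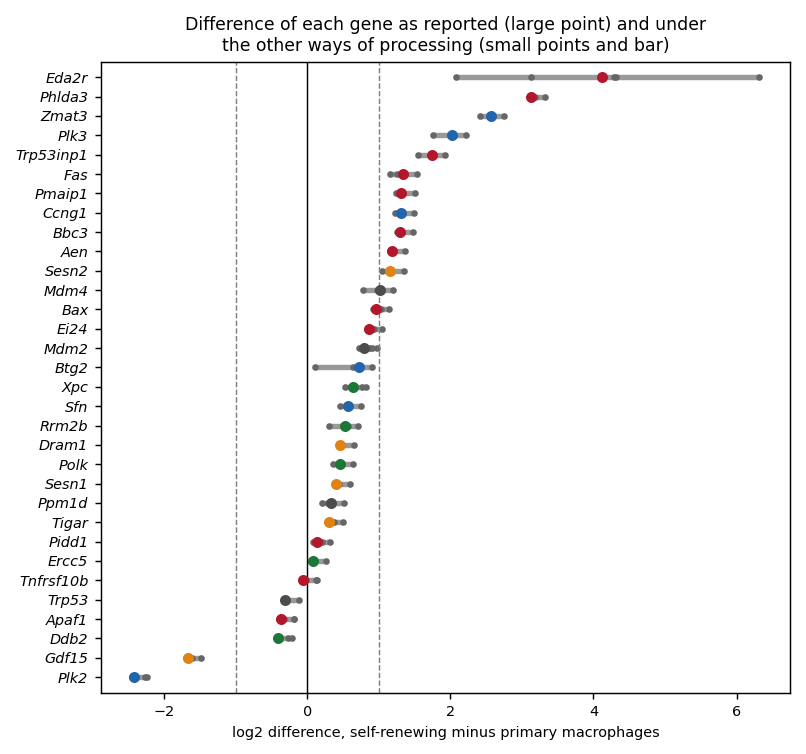
Difference of each of the 32 measured genes as reported (large points, coloured by role) and under the 8 other ways of processing (small points and grey bars), in log2, self-renewing minus primary macrophages. Dashed lines mark 2-fold. Only Tnfrsf10b has values on both sides of 0, and Eda2r has the widest range, from 2.09 to 6.31.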

How the data were processed

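RNA of 1 culture of primary and 1 of self-renewing macrophages was labelled with Cy3 and hybridised to Agilent SurePrint G3 mouse arrays, which lay on 1 slide. The authors deposited the output of Agilent Feature Extraction 11.5.1.1. It gives a spot intensity already corrected for background within the array, and columns that flag spots well above background and outliers. They also deposited a table of the same intensity values times 1 constant per array, 1.07 and 1.19, whose choice is not given in the sources used here.

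Each array was scaled here to its 75th percentile and log2 was taken, over 56598 gene probes, of which 34807 and 33095 were well above background. Control spots were left out, as were 63 outliers on each array, 0 of them of the p53 pathway genes, and no gene spot was saturated. Probes were named through their accessions in RefSeq's table of GRCm38.p6, which matched 58.3% of them. A gene was represented by its brightest probe on the log scale. A probe above background on 1 array has a bound, taken against the higher of the lowest signal above background on the other array and its own signal there. Thresholds were 2-fold, and no test was made, since a single array of each cell type leaves the spread between cultures unknown, which limits precision throughout.

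The genes, their role groups, the other gene lists and the alternatives were chosen with earlier results of these data known. The text names all genes of the list, and of the further targets and upstream regulators those at least 2-fold different. Others named from these lists, which are Gadd45a, Atm, Chek2, Rpl5, Rpl11, Trp53bp1, Cop1, Hipk2 and Trim24, and the gene Cdkn2a, were chosen after their values were seen. The alternatives were normexp background correction with an offset of 50 (limma 3.58.1 in R 4.3.3), 4 other scalings (quantile, the median or 75th percentile of those probes above background on both arrays, and the constants of the authors), no filter on background, only genes above background on both arrays, and averaging all probes for a gene. Gene differences were computed in Python 3.11.15 with numpy 2.4.6 and pandas 2.3.3, and the code was tested on simulated data.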

Additional observations from a re-analysis of the deposited data

How the results depend on the processing

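No paired analysis was possible because there was a single array of either cell type. Under the 8 alternatives, the number of p53 pathway genes at least 2-fold higher was from 11 to 14, the number at least 2-fold lower was 2, and their median was from 0.58 to 0.87 log2. Of all named genes, from 2.77% to 6.67% were at least 2-fold higher under these alternatives, and from 4.83% to 10.2% lower. Of the 12 genes at least 2-fold higher, 11 stayed so wherever they had a value, and Mdm4 lay below 2-fold under 4 alternatives, at 0.77 log2 with normexp. Eda2r has no value where only genes above background on both arrays are kept. Of 263 values of 33 single genes, Cdkn1a included, 257 stayed within the SD between probes. The other 6 were those of Eda2r, of Btg2 with the mean over its probes, at 0.11 log2, and of Cdkn1a, at -5.38 log2 with normexp and -5.16 log2 with the mean. Among the further targets, 11 were at least 2-fold higher with the authors' scaled values, beside 6.67% of all named genes. Past 2-fold, normexp left 429 higher and 750 lower among all named genes, beside 739 and 1300 as reported, and the counts were 1192 and 2336 with no filter on background, which tests more genes, and 782 were lower with only genes above background on both arrays. The cause of the difference with normexp was not tested. Genes near the background, such as Tnfrsf10b by its dimmer probe, are limited by signal.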

Other observations

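Relatives of the p53 pathway genes by gene family were listed after the values of the p53 pathway genes had been seen, and their values are given with no test. Of 30 such genes, 28 were measured. In the self-renewing macrophages 12 were higher, or 42.9% beside 47.9% of all named genes, and 16 lower. At least 2-fold higher were 0 genes, beside 4.76% of all named genes, and 5 were at least 2-fold lower. These were 17.9% of the measured relatives, beside 8.38% of all named genes at least 2-fold lower. The median was -0.16 log2, or 0.03 log2 with the authors' scaled values. The 5 lower genes were Btg3 and Btg1, relatives of Btg2, at -4.56 and -1.40 log2, Sesn3, a relative of Sesn1 and Sesn2, with a bound of -3.87 log2, Rrm2, the ribonucleotide reductase subunit of dividing cells, at -1.43 log2, and Plk4, the kinase of centriole duplication, at -1.18 log2. Among the sestrins, Sesn2 was 2.23-fold and Sesn1 1.32-fold higher, while Sesn3 was above background in primary macrophages only. Within ribonucleotide reductase, Rrm2b was 1.44-fold higher and Rrm2 lower. Rrm2 is also among the 16 proliferation genes, all of which were lower.

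Other relatives lay under 2-fold. Ccng2 was at -0.26 log2 beside 1.31 log2 for Ccng1, Trp53inp2 at 0.47 log2 beside 1.74 log2 for Trp53inp1, and Phlda1 at -0.28 log2 beside 3.13 log2 for Phlda3. Elsewhere there was no such gap. Ppm1a and Ppm1b were at 0.28 and 0.11 log2 beside 0.33 log2 for Ppm1d, and Ercc1 at 0.43 log2 beside 0.08 log2 for Ercc5. As the p53 pathway genes were chosen on this contrast, nothing is read from the gaps to their relatives.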
